A study of Drosophila melanogaster with 2 samples.

Results

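Accessible chromatin was examined at 10 heat shock genes of Drosophila melanogaster in ML-DmD17-c3 (D17) cells, a cell line from larval haltere imaginal disc. The genes are Hsf, Hsp83, Hsp70Aa, Hsp70Ab, DnaJ-1, Hsp22, Hsp23, Hsp26, Hsp27 and Hsp67Ba. Every region of the deposited ATAC-seq peak list that touched the body of such a gene, or lay within 2000 bp of its ends, was taken. This gave 17 of the 26571 regions in the list. There was 1 group of 2 libraries, both of D17 cells, and the labels name no treatment, heat shock or genotype for them. Both are covered by 1 peak list that names no replicate, so each fold and position below is the authors' value for the group, the values computed from them are also for the group, and none has an SD. The labels do not say that the libraries came from separate cultures, and the comparison available is between these genes and the rest of the list.

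Heat shock genes encode chaperones, proteins that hold, refold or hand on unfolded proteins. Their transcription is driven by the heat shock factor Hsf, which binds heat shock elements upstream of the genes once cells are stressed. Before stress, several of these Drosophila promoters are known to be kept free of nucleosomes, with the GAGA factor Trl bound and a paused RNA polymerase downstream of the start. ATAC-seq reads such open DNA through a transposase that cuts it and adds sequencing adapters. The gene table used here gives the lower and upper coordinate of each gene in the Release 6 assembly without strand, so a start and a stop could not be separated, and no sequence of these genes was used here.

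For each region the authors gave a fold enrichment, the number of reads piled up at the summit over the local background, each plus 1. The pileup and the background were recovered from the fold and its p-value. The interval beside a fold is the 95% Poisson interval of that pileup, which covers counting error only. Over the whole list the median fold was 1.90, the median pileup 101 reads and the median background 48.2 reads. The lowest background was 44.4 reads, a floor that many regions share. In a bulk sample, a region open in more cells and a region more open in each cell cannot be told apart. The 10% of the list with the highest fold are called strong regions; they have a fold of at least 2.999.

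A region lay within the window of 9 of the 10 genes, the exception being Hsp70Aa. The same window held a region at 88.3% of all 13946 protein-coding genes, so the presence of a region is near the background. At 7 of the 10 a region touched the body, against 71.4%. Strong regions were within reach of 6 of the 10: Hsp83, Hsp70Ab, DnaJ-1, Hsp23, Hsp27 and Hsp67Ba. Among all protein-coding genes the share was 19.8%, and among the 10019 that are no longer than the longest heat shock gene examined it was 11.9%. A strong region touched the gene body itself at 4 of the 10, which were Hsp83, DnaJ-1, Hsp23 and Hsp27, against 12.6% of all protein-coding genes and 4.48% of those no longer than the longest. These counts are descriptions with no test, since the genes were chosen with earlier results of the data known. They are also not 10 independent genes, because the 5 at cytological position 67B share regions: 6 of the 17 regions lay in the window of more than 1 gene.

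The 17 folds fell into 2 sets whose intervals did not meet. The 7 strong regions had folds of 3.01 to 3.92, and the lowest bound of any of their intervals was 2.70. The other 10 regions had folds of 1.43 to 2.37, and the highest bound among them was 2.67. The order of the sets follows from the split, and the gap between their bounds is narrow. Related genes outside the 10 have folds between the sets, such as 2.72 beside Hsp70Bc and 2.81 at Hsp68. Within the strong set no region differed from its neighbour in the order beyond their intervals, and 2 of the 21 pairs had intervals that did not overlap. Both pairs set the lowest, at Hsp27, against the regions at Hsp70Ab and inside DnaJ-1. The interval lay wholly above the strong limit in 3 regions, those at Hsp70Ab, in DnaJ-1 and in Hsp83.

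**Figure D1:**
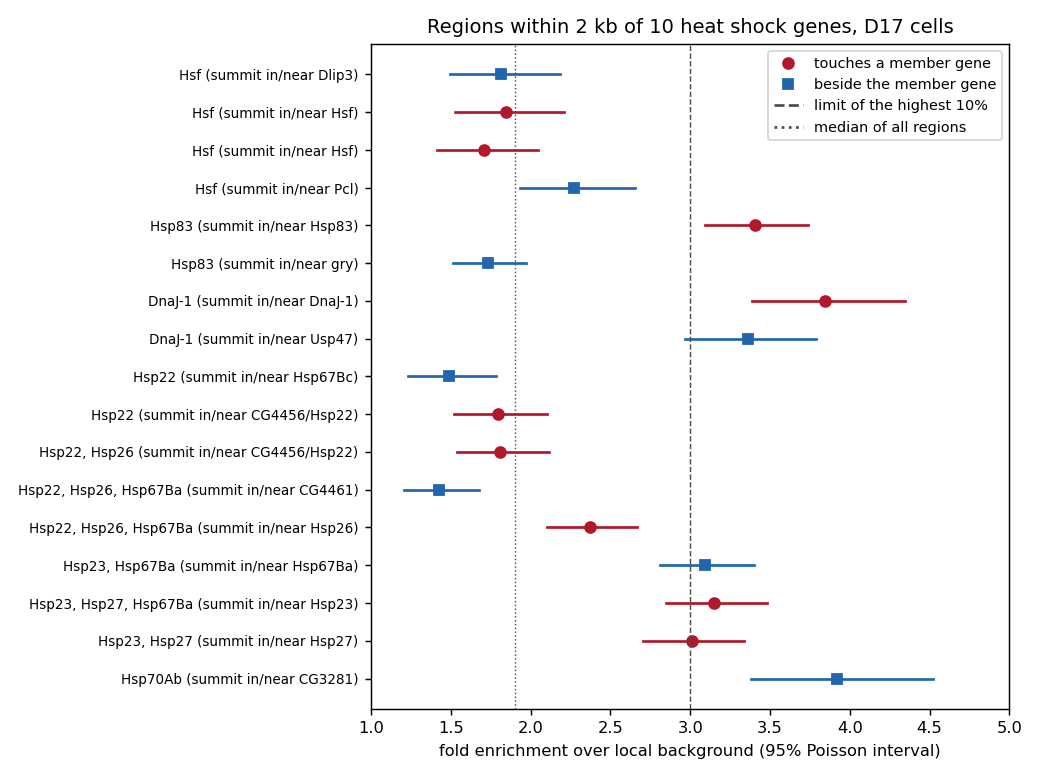
Fold enrichment over local background of the 17 regions within 2000 bp of the heat shock genes, with 95% Poisson intervals of the summit pileup as horizontal lines. Circles touch a heat shock gene examined here and squares lie beside it; the dashed line is the strong limit of 2.999 and the dotted line the list median of 1.90. Each label names the genes whose window holds the region and the protein-coding gene that holds, or is nearest to, its summit. The 7 strong regions lie between 3.01 and 3.92, and the other 10 between 1.43 and 2.37.

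The regulator, Hsf, had no strong region. Hsf (Dmel_CG5748; 2R, 18130303 to 18134634) encodes the factor that activates the other genes under stress. Its window held 4 regions with folds of 1.82, 1.85, 1.71 and 2.27, in order along the chromosome. The intervals of 3 of them include the list median of 1.90, and the exception was 2.27 (interval 1.93 to 2.66). That region, at 18135995 to 18136871, lies inside the neighbouring gene Pcl, which encodes the Polycomblike subunit of a Polycomb complex, and its summit is 1667 bp past the nearest end of Hsf. Of the other 3, the lowest in position overlaps Dlip3 and its summit lies inside that gene. Only the regions at 18131329 to 18132502 and 18133810 to 18134254 touch Hsf, with summits 1802 and 581 bp inside its ends. Their pileups of 115 and 116 reads stand close to the 111 to 113 reads that were the median of regions within 200000 bp. The end bases of Hsf lie in no region, although 37.4% of its body is covered.

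Hsp83, by contrast, carried a wide strong region inside the gene. Hsp83 (Dmel_CG1242; 3L, 3192969 to 3197059) encodes the Hsp90 chaperone, which is abundant in unstressed cells and rises further with heat. The region spans 3194518 to 3196636, is 2119 bp wide and covers 51.8% of the gene. Its fold was 3.40 (interval 3.09 to 3.74) on a pileup of 431 reads and a background of 126 reads. The summit lies 1044 bp inside the upper end, so the highest signal is neither at an end nor in the flank. The pileup was the second highest of 143 regions within 200000 bp, whereas the fold ranked 7 among them. That stretch of 3L had a median background of 76.4 reads against 47.6 for the whole arm, and its part in the pileup at Hsp83 was not tested. The second region in the window, at 3199037 to 3199754, begins 1978 bp past the gene, overlaps CG32276 and gry, and had a fold of 1.73 (interval 1.51 to 1.97). It was the region just inside the 2000 bp limit, and the nearest left out lay 2601 bp away with a fold of 1.55.

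DnaJ-1 was the gene with the largest share of its body open outside 67B. DnaJ-1 (Dmel_CG10578; 3L, 5750029 to 5752189) encodes an Hsp40 co-chaperone, which delivers unfolded proteins to Hsp70. A strong region at 5750325 to 5751956 covers 75.5% of the gene, a share in the 96.1st percentile of all protein-coding genes, whose median was 20.9%. Its fold was 3.84 (interval 3.39 to 4.35) on 252 reads over a background of 64.8. The summit lies 776 bp from the lower end. A second strong region, at 5752945 to 5753491, had a fold of 3.36 (interval 2.97 to 3.79) on 262 reads. This one overlaps the lower end of Usp47, which encodes a ubiquitin-specific protease, with its summit 223 bp inside that gene and 1007 bp from DnaJ-1. The pair differed by less than their intervals, and they ranked 3 and 7 by fold among the regions within 200000 bp.

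**Figure D2:**
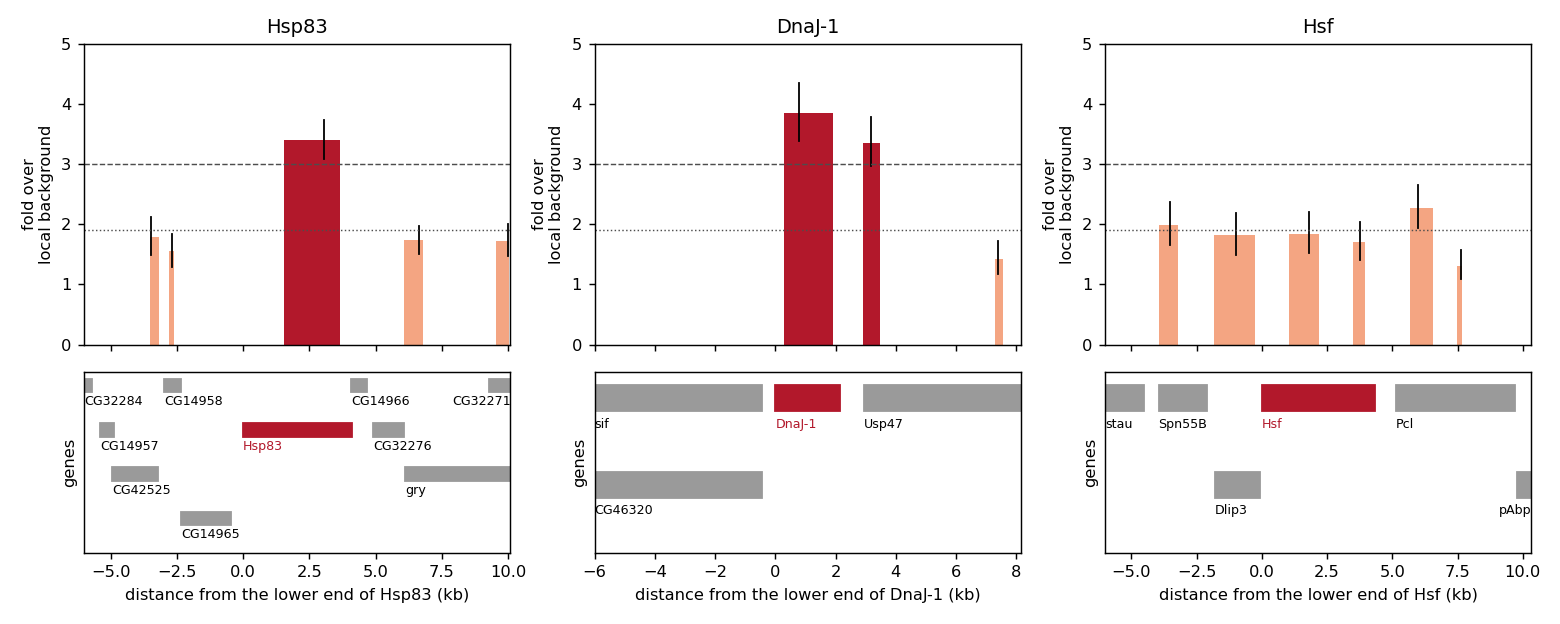
Regions and genes at Hsp83, DnaJ-1 and Hsf. Bars show the extent of each region and its fold over local background, black lines the 95% Poisson interval at the summit, dark red bars the strong regions, and the dashed and dotted lines the strong limit of 2.999 and the list median of 1.90. Distances are in kb from the lower end of each gene, drawn in red among its neighbours in grey. The highest regions at Hsp83 and DnaJ-1 lie inside the genes, and those in and around Hsf stay at 1.31 to 2.27.

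No region touched any Hsp70 gene. Hsp70 is the chaperone most strongly induced by heat in this species, and its genes lie at 87A (Hsp70Aa and Hsp70Ab) and 87C (Hsp70Ba, Hsp70Bbb, Hsp70Bb and Hsp70Bc). All 6 bodies were without a region, where 7 of the 10 genes examined here and 71.4% of protein-coding genes had one touching the body. Hsp70Aa (Dmel_CG31366; 3R, 11954163 to 11956544) and Hsp70Ab (Dmel_CG18743; 3R, 11958535 to 11960909) lie 1990 bp apart and are known to be transcribed away from each other, so the sequence between them holds both promoters. It too was without a region. The empty stretch ran for 14978 bp, from 11946207 to 11961184, and held Hsp70Aa, Hsp70Ab and CG31211. Of the 26564 stretches between neighbouring regions it was the 1427th longest, against a median of 1972 bp. At 87C the empty stretch was 49060 bp, from 12463234 to 12512293, the 184th longest in the list and the 31st on 3R. It held all 4 Hsp70B genes, pseudogenes CR46154 and CR46155 and lncRNA:alphagamma-element:CR32865.

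An empty stretch in a peak list is no measurement of closed chromatin. The Hsp70 genes are near-identical copies, so a read from one of them can be placed at several. The sources used here do not say how such reads were handled, and the part of read placement in these empty stretches was not tested. The 2 libraries give no read count there, since the list holds values only where a region was called.

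The strong region credited to Hsp70Ab by its window belongs by position to the next gene. It spans 11961185 to 11962501 on 3R, starts 276 bp past the upper end of Hsp70Ab and lies wholly inside CG3281 (11960883 to 11962805), which overlaps Hsp70Ab by 27 bp. The fold of 3.92 (interval 3.38 to 4.52) was the highest of the 17 regions. It rested on 186 reads over a background of 46.7, which is close to the median of 45.7 among regions within 200000 bp, and it ranked second by fold there. Both backgrounds lie near the floor of 44.4 reads in the list. The next region beyond the window, at 11963234 to 11964524 in the kinase gene aurA, had a fold of 2.29 (interval 1.91 to 2.74). At 87C the matching flank, 12512294 to 12513230, lies inside Octbeta3R within the window of Hsp70Bc, and its fold was 2.72 (interval 2.28 to 3.22).

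**Figure D3:**
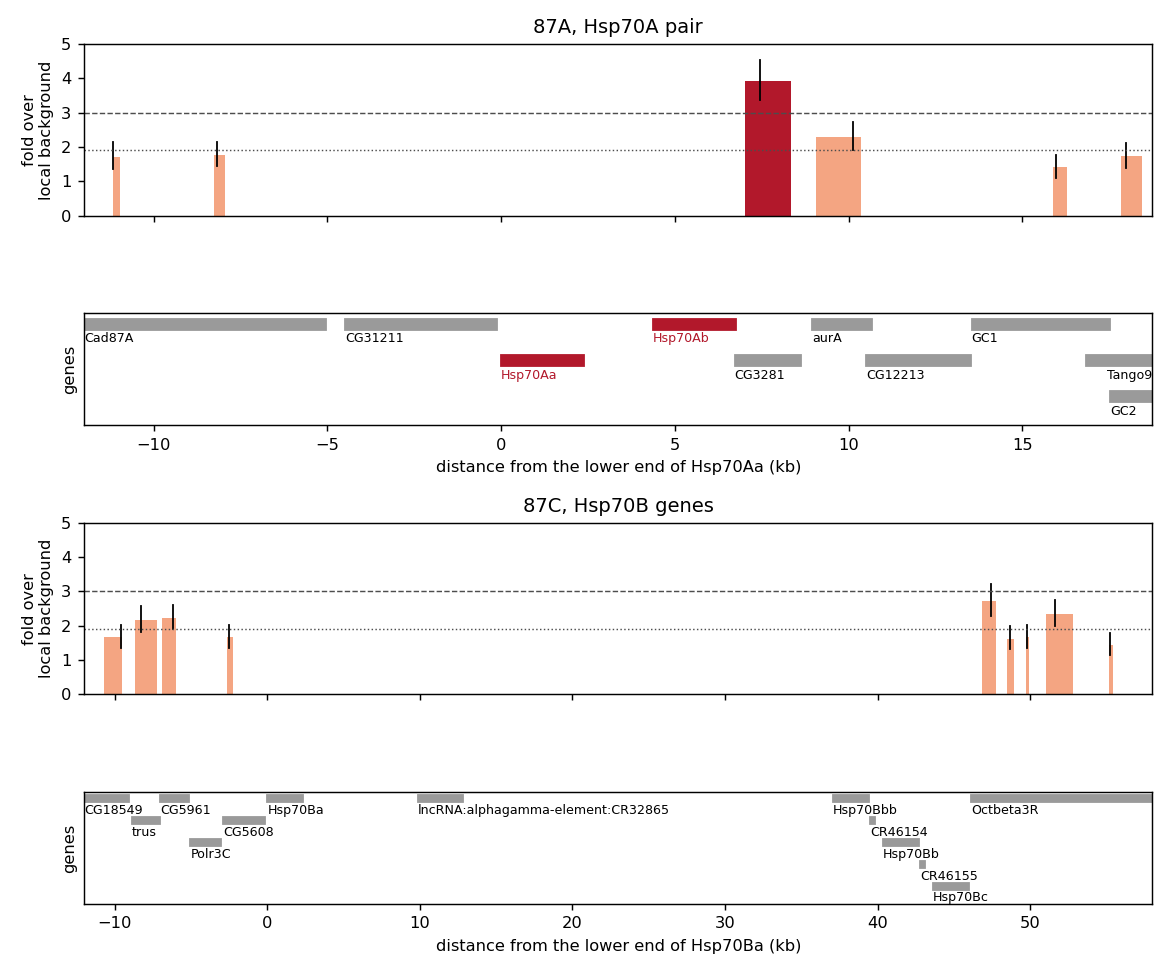
Regions and genes at the Hsp70 loci 87A and 87C. Bars, lines and colours are as in the map of Hsp83, DnaJ-1 and Hsf; distances are in kb from the lower end of Hsp70Aa and of Hsp70Ba. No bar stands over any of the 6 Hsp70 genes, and the bar of fold 3.92 beside Hsp70Ab stands over CG3281.

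The small heat shock genes at 67B had weaker regions on the lower side of their cluster than on the upper. These genes encode small chaperones of the alpha-crystallin family, which bind unfolded proteins without ATP, and several of them also respond to the hormone ecdysone. From the lower end of Hsp67Bc to the upper end of Hsp27 the cluster spans 14184 bp (3L, 9371511 to 9385694) and held 8 regions covering 35.0% of it. All 3 strong regions lay toward its upper side, at Hsp67Ba, Hsp23 and Hsp27. Summit pileups in order along the chromosome were 116, 149, 155, 147, 275, 434, 393 and 354 reads. Folds in the same order were 1.49, 1.79, 1.81, 1.43, 2.37, 3.09, 3.15 and 3.01. The first 4 regions, around Hsp22, were all below the list median in fold, and the last 4 all above it.

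Reads were high across the cluster in the background as well as at the summits, and both were highest at the region between Hsp67Ba and Hsp23. Background at the 8 regions ran from 77.7 to 140 reads, above all 17 regions within 20000 bp on either side, where it ran from 44.4 to 72.6. The 44.4 is the floor of the list. The median pileup was 215 reads in the cluster against 117 in those flanks. The median fold was 2.09 against 2.07, but in the cluster that median falls between 4 regions of 1.43 to 1.81 and 4 of 2.37 to 3.15. Strong regions were 3 of 8 in the cluster and 2 of 17 in the flanks, with no test. The 4 highest pileups among the 88 regions within 200000 bp of the middle of the cluster were all in it, and the highest outside it was 270 reads. Pileup and fold thus order the loci differently, and how far nearby open regions raised each other's background was not tested.

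**Figure D4:**
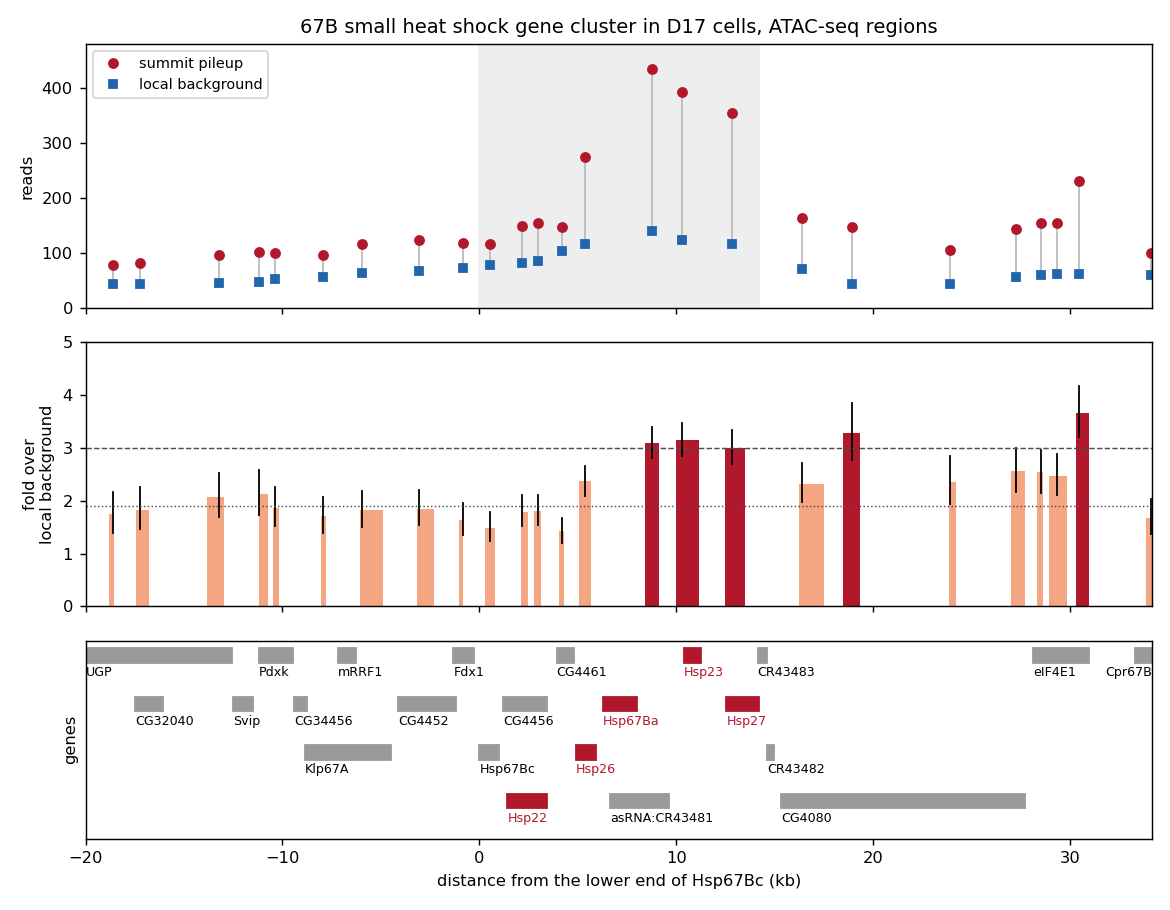
The 67B cluster (grey band in the upper panel) with 20 kb on either side. The upper panel gives reads at each summit (circles) and the local background (squares), the middle panel the fold with 95% Poisson intervals at each region, with the strong limit dashed and the list median dotted, and the lower panel the genes, those examined here in red. Distances are in kb from the lower end of Hsp67Bc. Pileups rise from 116 reads near Hsp67Bc to 434 reads beyond Hsp67Ba, and the background rises with them to 140 reads.

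Hsp22 and Hsp26 carried weaker regions, all inside the genes or over neighbours. Hsp22 (Dmel_CG4460; 3L, 9372931 to 9374964) encodes a mitochondrial small chaperone and lies entirely within CG4456, a gene also known as Hsp67Bb, so its values belong equally to that gene. The regions touching it had folds of 1.79 (interval 1.52 to 2.11) and 1.81 (interval 1.54 to 2.11), both including the list median. A further pair in its window had the lowest folds of the 17, with intervals wholly below that median. These were 1.49 in Hsp67Bc and 1.43 (9375542 to 9375818) in CG4461. Hsp26 (Dmel_CG4183; 9376418 to 9377427) had a region inside it, 9376593 to 9377171, with a fold of 2.37 (interval 2.10 to 2.67) on 275 reads. It covers 57.3% of the gene, and its pileup exceeds those around Hsp22, which were 116 to 155 reads.

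Hsp23 and Hsp27 were the genes whose ends lay in a region. Hsp23 (Dmel_CG4463; 9381882 to 9382765) encodes a cytoplasmic small chaperone. Its region, 9381507 to 9382643, covers the lower end and 86.2% of the body, in the 98.6th percentile of protein-coding genes. The fold was 3.15 (interval 2.85 to 3.48) on 393 reads, with the summit 71 bp outside the lower end. Hsp27 (Dmel_CG4466; 9384063 to 9385694), whose product is found in the nucleus, had a region at 9384005 to 9385002 over its lower end. The fold was 3.01 (interval 2.70 to 3.34) on 354 reads, and the summit lay 268 bp inside the gene. A region over an end base was thus present at 2 of the 10 genes, against 24% of protein-coding genes. A strong region over an end base was likewise present at 2 of the 10, against 7.08%. With 500 bp allowed on either side of an end the count was 9 of the 10, against 68.6%.

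Hsp67Ba had no region in its body, and both strong regions in its window lie outside the gene. Hsp67Ba (Dmel_CG4167; 9377802 to 9379534) is a further gene of the alpha-crystallin family at 67B. The higher fold in its window, 3.15, belongs to the region over the lower end of Hsp23. The other region, at 9379909 to 9380650, begins 375 bp past its upper end, has its summit 726 bp past it and overlaps the non-coding gene asRNA:CR43481. Its fold was 3.09 (interval 2.81 to 3.40), and its 434 reads were the highest pileup of the 17 regions. By pileup the region stood at the 98.8th percentile of the list, and by fold at the 90.8th. It lies between Hsp67Ba and Hsp23, whose ends are 2347 bp apart, and within the windows of both.

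**Figure D5:**
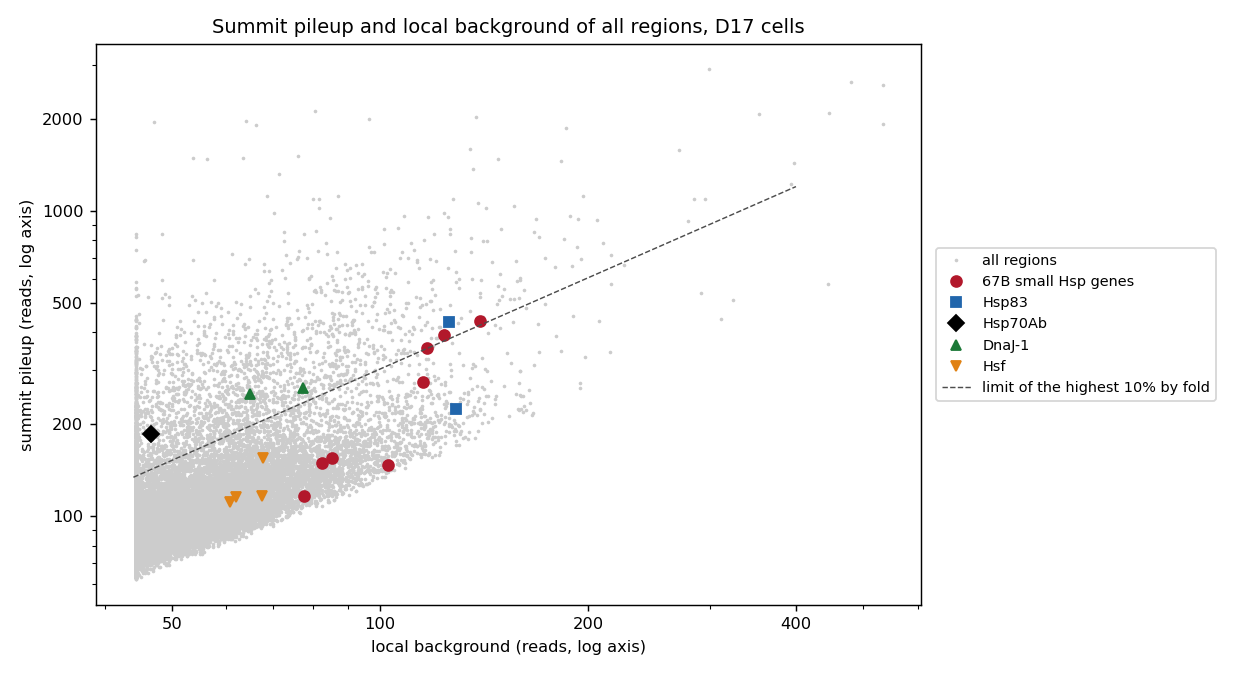
Summit pileup against local background, in reads on log axes, for all 26571 regions (grey) and the 17 regions at heat shock genes (coloured by locus). Points above the dashed line have a fold past the strong limit of 2.999. The regions of 67B and Hsp83 lie at high background, up to 140 reads, while that of Hsp70Ab lies at 46.7 reads.

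By place, 9 of the 17 regions touched a heat shock gene examined here, 7 of them wholly inside it and 2 over an end. The other 8 lay beside the genes, and each of these overlapped another annotated gene. The median fold was 2.37 for those touching a gene and 2.04 for those beside it. The median over all 17 was 2.27, against 1.90 in the list. Their median pileup was 186 reads against 101, and their median background 82.6 reads against 48.2. Pileup was in the highest 10% of the list for 9 of the 17 regions and background for 11, and fold for 7. The 67B cluster holds 8 of the 17 regions, all of them in the highest 10% by background. These medians and counts are therefore not those of 17 separate loci. The median width was 742 bp against 497 bp.

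Among 29 other genes of the heat shock response and of the chaperone machinery, 25 (86.2%) had a region in the window, where 88.3% of protein-coding genes had. A strong one was present at 3 of the 29 (10.3%), against 19.8% of protein-coding genes, with no test. Among protein-coding genes no longer than the longest heat shock gene examined (4332 bp), the share was 11.9%. Most of the 29 keep within that length, but the 3 with a strong region do not. Those 3, Hsp110, stv and Trl, are 6668, 5975 and 13121 bp long, so the 10.3% and the 11.9% are not shares at like lengths. Of the 29, 1 is not protein-coding, lncRNA:Hsromega. The list was written with earlier results of these data known. The strong ones were Hsp110, an exchange factor for Hsp70, at 4.60 (interval 4.19 to 5.04), the Hsp70 co-chaperone gene stv at 4.37 (interval 3.98 to 4.77) and Trl, the GAGA factor gene, at 3.73 (interval 3.42 to 4.07). Each of these regions touches its gene, with pileups of 459, 480 and 524 reads. Next in order came Hsc70-4, the main constitutive Hsp70 relative, at 2.97, the mitochondrial Hsp90 gene Trap1 also at 2.97, and the Hsp40 gene mrj at 2.84. Their intervals include the strong limit, and the region of Trap1 does not touch its gene. Hsp68, a heat-inducible relative of Hsp70 with a sequence of its own, had a region over an end with a fold of 2.81 (interval 2.47 to 3.18) on 248 reads. At 67B, Hsp67Bc and CG4456 had top folds of 1.81 and 2.37, from regions that touch Hsp22 and Hsp26. No region lay in the window of Hsp70Ba, Hsp70Bb, Hsp70Bbb or STUB1, which encodes a ubiquitin ligase that acts with Hsp70.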

How the data were processed

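ATAC-seq was made from 2 libraries of D17 cells. Tools named, without roles, in the submitters' processing notes are MACS2 (2.2.6), Bowtie2 (2.3.5.1), bedtools (2.29.2), Trim Galore (0.6.4) and SAMtools (1.13); the builds named are dm6 and BDGP6. Pooling, transposase shift, duplicate and multi-mapping handling are not given in the sources used here, and read totals are unknown. The deposited list has 10 columns. The deposited fold enrichment is a ratio. Summit p-values and q-values were deposited as −log10 p and −log10 q, the lowest −log10 q being 1.34. In 99.95% of regions the deposited score was the −log10 q times 10 without its decimals. Layout and values gave these meanings. Whole-number pileups, with a Poisson tail above the pileup as p, met the deposited values to 2.11e-05 in relative error; the recovery was tested on simulated data. Depth behind a value is its pileup. Genes came from a Release 6 table (17807 genes). Overlap meant at least 1 bp. The planned start window became either end base, since strand was not used. Genes and lists were chosen with earlier results of these data known. No test was run, as there is 1 list. All 10 genes are named, with the 6 highest of the other chaperone list and every Hsp70 and 67B gene; Hsp68, STUB1, the Hsp60 and other Hsc70 genes, lncRNA:Hsromega and some neighbours were added after their values were seen. HspB8 and Hop matched no single gene, and CryAB and Chip/STUB1 repeated another name. Software was SciPy 1.17.1, pandas 2.3.3 and numpy 2.4.6 under Python 3.11.15.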

Additional observations from a re-analysis of the deposited data

How the results depend on the processing

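Of 40 recomputed values under alternatives, 30 stayed close to the reported value: counts within 1.5 times, and the median fold within the interval of the middle region (1.93 to 2.66). The number of genes with a region, 9, ran from 7 with no window to 10 at 5000 bp, against 71.4% and 93.4% of protein-coding genes. The number with a strong region, 6, ran from 4 with no window to 9 at 5000 bp, against 12.6% and 28.3%. Both of these lie at the edge of the 1.5 times allowed and were counted as close. The exceptions were as follows; none has a tested cause beyond its construction. The number of regions, 17, was 9 with no window, 26 at 5000 bp and 10 when only regions with a summit in or nearest to a heat shock gene counted. The median fold, 2.27, was 2.69 at 500 bp, 1.92 at 5000 bp, 2.69 by nearest summit and 3.01 in the higher-scoring 50%. Genes with a strong region, 6, fell to 1 with the highest 5% by fold. That gene was Hsp70Ab, credited by its window with the region inside CG3281, which does not touch Hsp70Ab. Genes with a strong region fell to 3 where the whole interval had to pass the limit. They were 8 by pileup or score. The share of all protein-coding genes under each of these other limits is not given here, so these counts have no background beside them. Genes with a region over an end base, 2, became 9 within 500 bp. Merging changed nothing, as no regions touched. The nearest-summit, interval and pileup alternatives were chosen after seeing the data. The planned summit count at a single end base could not give a value, and leaving out a library was not possible with 1 list. No paired analysis was possible because there is 1 group.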

Other observations

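The heat-inducible non-coding gene lncRNA:Hsromega (3R, 21296127 to 21317836), whose transcript gathers RNA-binding proteins in stressed nuclei, had no region in its body of 21710 bp. Among the 967 annotated genes at least as long, 48 (4.96%) had none. The empty stretch ran for 27353 bp, from 21291838 to 21319190, the 553rd longest in the list. The nearest region, 21319191 to 21319800, had a fold of 2.03 (interval 1.64 to 2.49) on 91 reads. Much of the gene is known to be tandem repeat, and the part of read placement there was not tested.

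Like Hsc70-4, whose top fold was 2.97, 8 further Hsp60 chaperonin and Hsp70 cognate genes had no strong region in the window. They were grouped after their values were seen. Hsp110, also named Hsc70Cb, is not among them and had a strong region of 4.60. Over all protein-coding genes the share with a strong region was 19.8%. It was 11.9% among those no longer than the longest heat shock gene examined, a length that only Hsp60C and Hsc70-3 of the 8 exceed. Top folds were 2.21 at Hsp60A, 2.33 at Hsp60B, 2.38 at Hsp60C and 2.59 at Hsp60D. They were 2.75 at Hsc70-1, 2.23 at Hsc70-2, 2.60 at Hsc70-3 and 2.79 at Hsc70-5. The intervals of Hsp60D, Hsc70-1, Hsc70-3 and Hsc70-5 reach past the strong limit of 2.999, to 3.09, 3.24, 3.11 and 3.20. All 8 of these regions touch their gene.

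As a look at the line itself, the haltere disc genes Ubx, Antp, vg, ap and hth all had regions in their windows (5 of 5, 4 with a strong one). So did the blood cell genes srp, Hml and He (3 of 3, each with a strong one). Over all protein-coding genes the shares were 88.3% with a region and 19.8% with a strong one. The disc genes are 15185 to 132008 bp long, and srp and Hml 17934 and 13948 bp, which gives their windows more room for regions. The disc gene without a strong region was vg, with a top fold of 2.47. At srp 2 strong regions touch the gene, and at Hml and He none does. Presence of a region does not give a cell type.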
